A study of Rattus norvegicus with 8 samples.

Results

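The genes described here are Nfe2l2, Keap1 and 6 of the genes that Nfe2l2 drives, Srxn1, Hmox1, Nqo1, Gclc, Gclm and Ephx1, in fetal testes of Fischer 344 rats, taken at gestational day 20. Nfe2l2 encodes Nrf2, a leucine zipper transcription factor that is the main activator of genes against oxidants and electrophiles, and Keap1 encodes the adaptor that brings Nrf2 to a ubiquitin ligase for breakdown. When oxidants or electrophiles react with cysteines of Keap1, Nrf2 escapes breakdown, pairs with a small Maf protein and binds antioxidant response elements near its target genes. Its activity is set largely through the stability of the protein, which an expression array does not measure. In the testis, steroid synthesis in Leydig cells gives off oxidants as a by-product.

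All probe sets that the platform's annotation assigns to one of these 8 symbols alone were taken, which gave 12 of the 31042 probe sets tested. Srxn1 had 3, Keap1 and Gclc 2 each, and the other 5 genes 1 each. In 4 samples the dams had received 50 mg/kg dibutyl phthalate (DBP), a plasticizer that lowers fetal testosterone at high doses, mixed in corn oil. The other 4 samples came from dams given the corn oil vehicle in the same volume, 1 ml/kg. Dams of both groups were dosed by gavage once a day between gestational days 12 and 20, and testes were collected 6 h later. The design sets DBP against vehicle at this single dose, to find the transcripts that respond.

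Each sample was hybridised to 1 Affymetrix rat array, and the values are log2 signals made by the authors with RMA. Array medians lay between 6.08 and 6.13, and correlations between arrays between 0.991 and 0.998. Within vehicle the correlations were 0.9977 to 0.9982, and within DBP they were lower, 0.9916 to 0.9969. The SD of log2 signals was 2.19 and 2.18 in DBP replicates 3 and 4, against 2.23 to 2.25 on the other 6 arrays. Precision is limited by the number of arrays. Whether each sample came from its own dam is not in the labels, and p-values here measure only the spread between samples, which may be technical. The poly-A spike-ins (bacterial RNAs added before labelling) were weak in DBP replicates 3 and 4, with mean log2 signals of 4.84 and 4.79 against 6.46 to 7.17 on the other 6 arrays. Changes in DBP replicates 1 and 2 alone are therefore given for the 12 probe sets and for the main genes of the lists. Leydig cell markers (6 of 6 measured, mean log2 signals of 10.19 to 12.62) and Sertoli cell markers (5 of 6 measured, 6.85 to 12.64) were all above the median of all probe sets. Of 7 germ cell markers only Kit and Tdrd1 were analysed here.

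After DBP, 1 of the 12 probe sets rose and 1 fell, and the other 10 did not pass. Srxn1, which encodes sulfiredoxin, rose 1.85-fold on its brightest probe set, and Hmox1, which encodes heme oxygenase 1, fell 1.29-fold. The transcription factor, its inhibitor and the 4 remaining targets did not pass. A probe set passed at a Benjamini-Hochberg adjusted p under 0.05 in limma over all probe sets, a rule that 1.07% of all probe sets met (0.419% higher and 0.648% lower). Of the 12 probe sets 5 had an unadjusted p below 0.05 in limma, against 18.2% of all. The DBP and vehicle arrays did not overlap for 3 of the 12, against 10.9% of all. Over the 8 genes, each by its brightest probe set, the median log2 change was 0.07, and over all 14217 genes it was 0.02.

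**Figure D1:**
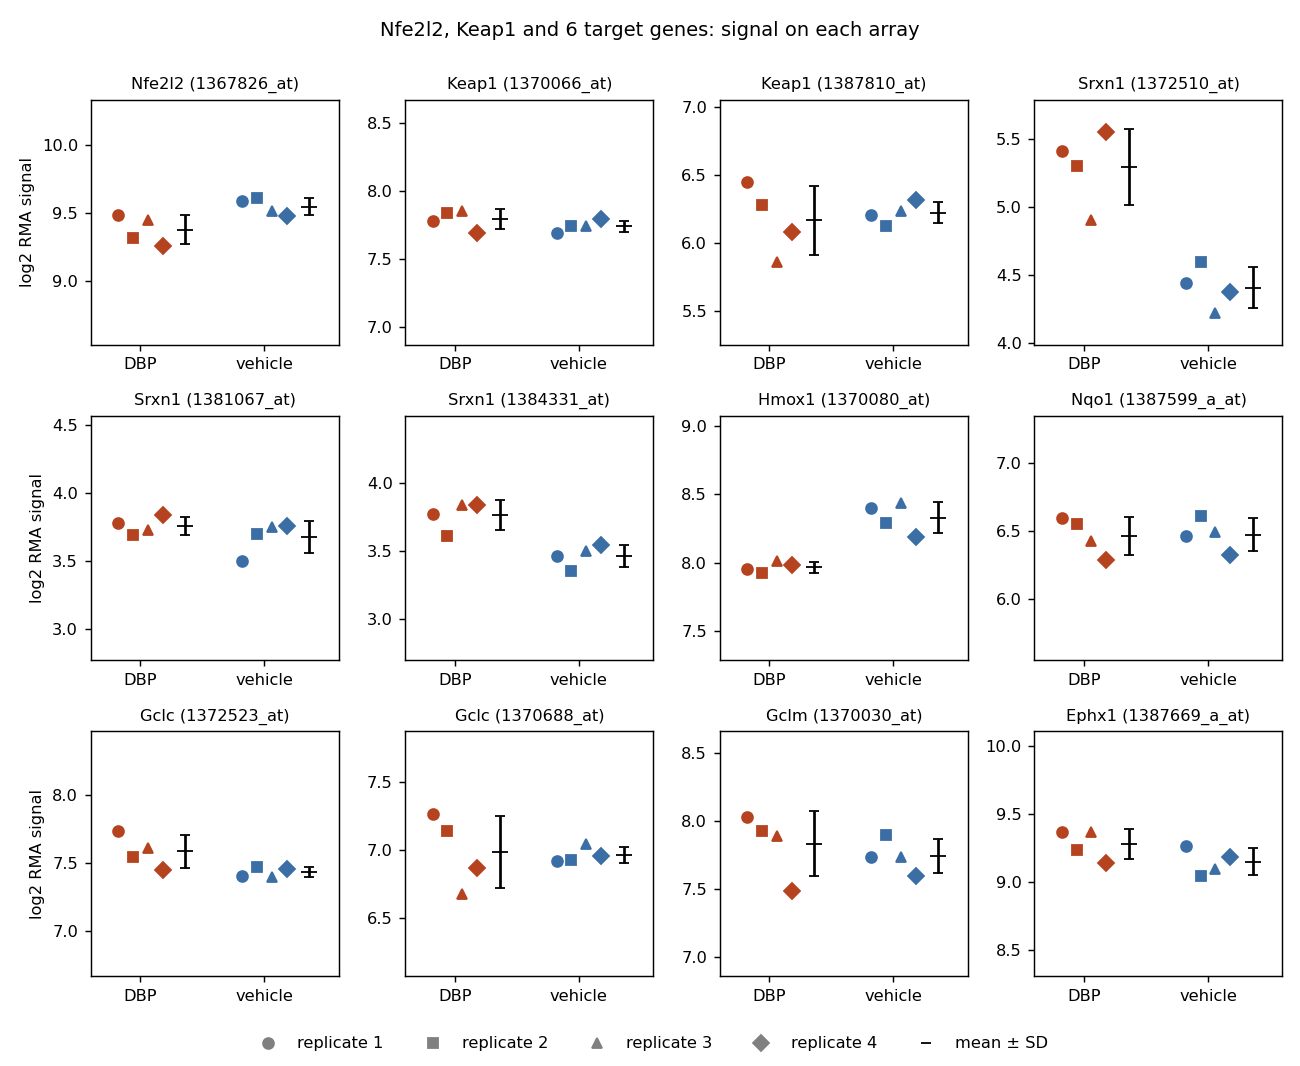
Log2 RMA signal (vertical axis, each panel spanning 1.8 log2 units) of the 12 probe sets on the 4 DBP and 4 vehicle arrays, with a marker shape per replicate and the mean ± SD beside each group. The groups stand clear of each other for Srxn1 1372510_at and 1384331_at and for Hmox1, and overlap in the other 9 panels.

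Nfe2l2 itself had log2 signals of 9.49, 9.32, 9.45 and 9.26 in DBP replicates 1 to 4, against 9.59, 9.61, 9.52 and 9.48 in vehicle replicates 1 to 4. All 4 DBP arrays lay below the vehicle mean, and the highest DBP array and the lowest vehicle array overlapped by 0.01. The log2 change was -0.17 ± 0.0677 (SE, n = 4 per group), with a 95% confidence interval of -0.32 to -0.02 and an adjusted p of 0.232 in limma. The change was -0.15 in DBP replicates 1 and 2 alone. Nfe2l2 was among the brighter transcripts, at the 91.4th percentile of the mean signals of all probe sets.

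Keap1 was measured by 2 probe sets, neither of which passed. The brighter, 1370066_at, read 7.78, 7.84, 7.85 and 7.69 in DBP replicates 1 to 4 and 7.69, 7.74, 7.74 and 7.79 in vehicle, a log2 change of 0.05 (95% confidence interval -0.08 to 0.18; limma adjusted p = 0.661) that was 0.07 in DBP replicates 1 and 2. The dimmer, 1387810_at, read 6.45, 6.28, 5.86 and 6.08 in DBP and 6.21, 6.13, 6.24 and 6.32 in vehicle. Its change was -0.06 (-0.31 to 0.19; limma adjusted p = 0.809), and its DBP arrays ranged from below the lowest to above the highest vehicle array. In DBP replicates 1 and 2 alone the dimmer probe set gave 0.14, the opposite sign, and in DBP replicates 3 and 4 alone -0.26, neither passing in limma (adjusted p = 0.42 and 0.0767).

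Sulfiredoxin, the product of Srxn1, restores peroxiredoxins that peroxide has over-oxidised. The brightest Srxn1 probe set, 1372510_at, had log2 signals of 5.41, 5.30, 4.90 and 5.55 in DBP replicates 1 to 4, against 4.44, 4.59, 4.22 and 4.37 in vehicle replicates 1 to 4. Every DBP array lay above every vehicle array, with the closest values 0.31 apart. The log2 change was 0.89 ± 0.131 (SE; 95% confidence interval 0.60 to 1.17; limma adjusted p = 0.0126), and only 21 of 14217 genes had a higher one. The change was 0.95 in DBP replicates 1 and 2 and 0.82 in DBP replicates 3 and 4. Leaving out vehicle replicate 3 or 4 ended the call (adjusted p = 0.0571 and 0.0523), as did unmoderated t statistics (0.12).

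Both other Srxn1 probe sets were dimmer and did not pass. The first of them, 1384331_at, had signals of 3.77, 3.61, 3.84 and 3.84 in DBP and of 3.46, 3.35, 3.50 and 3.54 in vehicle, without overlap. Its log2 change was 0.30 ± 0.0709 (SE; limma adjusted p = 0.0781), and it passed without DBP replicate 2 (0.35, adjusted p = 0.0354). It did not pass when any other array was left out (limma adjusted p up to 0.196). DBP replicates 1 and 2 alone gave 0.23 (limma adjusted p = 0.187), and DBP replicates 3 and 4 alone gave 0.38 and passed (0.0178). For 1381067_at the values were 3.78, 3.69, 3.73 and 3.84 in DBP and 3.50, 3.70, 3.75 and 3.76 in vehicle, and the groups overlapped (0.08 ± 0.0713; adjusted p = 0.548; 0.06 in DBP replicates 1 and 2). The 3 probe sets lay at the 33.7th, 11.4th and 13.5th percentile of mean signals, all below the median of the arrays, and detection calls were not used here. The brightest changed by 0.80 more than 1381067_at (exact permutation test, 2-sided, p = 0.0286, the smallest that 4 against 4 arrays allow) and by 0.58 more than 1384331_at (exact p = 0.0571). Adjusted over the 4 such differences within Keap1, Srxn1 and Gclc, 0 passed, with an adjusted exact p of 0.114 for both of Srxn1. A lone difference at the smallest exact p cannot go below 0.114 after this adjustment. The lack of a pass therefore does not show that the Srxn1 probe sets agree. Averaged over its 3 probe sets, the one that passed included, Srxn1 rose by 0.42 (limma adjusted p = 0.00989).

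A core of the form TGACNNNGC is known from antioxidant response elements, and TGACTCAGC is a form of it. Nrf2 with a small Maf protein also binds TGAGTCAGC, which has a G where TGACNNNGC has a C. Both TGACTCAGC and TGAGTCAGC hold the AP-1 site TGAGTCA, on the one or the other strand. RefSeq promoters (GRCr8, 250 bases before to 50 after a start site) were given for 7 of the 8 genes and were searched for these 4 motifs on both strands. Of 33469 promoters of that length 12.1% held TGACNNNGC, 0.4% TGAGTCAGC, 0.415% TGACTCAGC and 4.63% TGAGTCA. The promoters are shown for Srxn1, whose transcript rose, and for Gclm and Ephx1, whose transcripts did not pass though a motif stands in the same window. Capitals mark the matches.
Srxn1 (GRCr8, chr3:161064562-161064861, + strand): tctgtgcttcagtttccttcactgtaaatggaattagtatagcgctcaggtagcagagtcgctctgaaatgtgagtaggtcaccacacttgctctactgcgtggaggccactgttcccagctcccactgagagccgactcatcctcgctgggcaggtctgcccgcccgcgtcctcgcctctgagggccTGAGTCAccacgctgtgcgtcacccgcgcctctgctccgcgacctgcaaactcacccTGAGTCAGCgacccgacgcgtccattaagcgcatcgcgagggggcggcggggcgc
Gclm (GRCr8, chr2:213031885-213032184, + strand): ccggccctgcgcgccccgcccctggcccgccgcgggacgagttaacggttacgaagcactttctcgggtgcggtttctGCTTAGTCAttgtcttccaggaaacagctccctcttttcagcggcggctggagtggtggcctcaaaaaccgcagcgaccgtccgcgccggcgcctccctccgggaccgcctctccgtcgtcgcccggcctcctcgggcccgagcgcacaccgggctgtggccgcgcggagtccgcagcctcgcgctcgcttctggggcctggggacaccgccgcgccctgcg
Ephx1, second start site in the table (GRCr8, chr13:95263068-95263367, - strand): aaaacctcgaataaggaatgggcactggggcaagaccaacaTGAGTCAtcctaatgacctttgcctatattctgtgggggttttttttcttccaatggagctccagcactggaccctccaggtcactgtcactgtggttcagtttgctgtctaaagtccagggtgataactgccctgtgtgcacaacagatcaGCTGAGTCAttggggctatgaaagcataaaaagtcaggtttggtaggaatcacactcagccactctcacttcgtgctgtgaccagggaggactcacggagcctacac
The Srxn1 window held TGAGTCAGC from 5 bases before the start, with a TGAGTCA inside it, and a second TGAGTCA from 62 bases before the start. Gclm held TGACNNNGC on the reverse strand, from 172 bases before the start. The second start site of Ephx1 held TGACTCAGC on the reverse strand from 57 bases before, and a separate TGAGTCA from 209 bases before. The TGACTCAGC there is itself the TGACNNNGC match and holds a TGAGTCA. Nfe2l2 held TGACNNNGC once, after its start, and the windows of Keap1, Nqo1, Gclc and the first start site of Ephx1 held none of the 4. A match is a run of letters, and binding was not measured. Elements farther than 250 bases before or 50 after a start were not searched. A window without a match therefore does not show that a gene lacks an element.

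Heme oxygenase 1 breaks heme down to biliverdin, iron and carbon monoxide. Its gene Hmox1 is induced through Nrf2 and held down by the heme-sensing repressor Bach1. Hmox1 (1370080_at) had log2 signals of 7.95, 7.92, 8.01 and 7.98 in DBP replicates 1 to 4, against 8.40, 8.29, 8.44 and 8.19 in vehicle replicates 1 to 4. All DBP arrays lay below all vehicle arrays, and the DBP arrays were closer together (SD 0.0387) than the vehicle arrays (SD 0.113). The log2 change was -0.36 ± 0.0665 (SE; 95% confidence interval -0.51 to -0.22; limma adjusted p = 0.032), and 2.81% of genes had a larger change in either direction. DBP replicates 1 and 2 alone gave -0.40, and DBP replicates 3 and 4 gave -0.34. The call ended under 8 other settings. Among them were quantile normalization (limma adjusted p = 0.0534), a block for replicate number (0.0674) and unmoderated t statistics (0.105). The rest were the fits without DBP replicate 1 (0.0719) or 3 (0.0599) or vehicle replicate 1 (0.117), 2 (0.0813) or 3 (0.126).

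Macrophages that clear red cells carry much heme oxygenase 1. Of 14 macrophage markers 13 were measured, and their mean log2 signal per array was 6.51 to 6.70 in DBP and 6.46 to 6.61 in vehicle. None of these markers passed in limma. An unadjusted p under 0.05 was met by 3 of 13, all higher, against 19.1% of all genes, and 11 of 13 had a higher mean in DBP, against 57.3% of all genes. Of 12 erythroid markers 9 were measured, with array means of 7.92 to 8.64 in DBP and 7.85 to 8.15 in vehicle, DBP replicates 1 and 2 being highest. None of them passed either, 3 of 9 had an unadjusted p under 0.05, and all 9 had a higher mean in DBP, with a median log2 change of 0.31. RMA signals have no 0, and the dimmest macrophage and erythroid markers averaged 3.86 and 4.97. Of 8 endothelial markers 7 were measured, with array means of 7.77 to 7.85 in DBP and 7.75 to 7.76 in vehicle, without overlap. Plvap, of the diaphragms of endothelial pores, rose (0.36, limma adjusted p = 0.0471), and 4 of the 7 had a higher mean in DBP. Of the Leydig cell markers 0 of 6 passed and 3 had groups without overlap, against 12.9% of all genes, namely Insl3, a hormone of testis descent (-0.34, limma adjusted p = 0.0732), Lhcgr, the luteinizing hormone receptor (-0.21, 0.17), and Hsd3b1, a steroid dehydrogenase (0.17, 0.163). Of the Sertoli cell markers 0 of 5 passed and 1 had groups without overlap, the inhibin subunit gene Inhbb (-0.35, limma adjusted p = 0.0614). The largest change of that list went the other way, in Cst12 (0.46, limma adjusted p = 0.133), with overlapping groups. The Sertoli list had 2 markers with a higher mean in DBP and 3 with a lower one. Array means were 11.55 to 11.73 in DBP and 11.66 to 11.73 in vehicle for the Leydig list, and 9.84 to 10.11 in DBP and 9.95 to 10.04 in vehicle for the Sertoli list. These markers were named after their values were seen, and the part of these cells in the Hmox1 result was not tested. In whole testis, fewer cells of a type and less RNA per cell cannot be told apart.

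None of the other 4 targets passed in limma. Nqo1, a quinone reductase and a standard reporter of Nrf2 activity, had signals of 6.59, 6.55, 6.42 and 6.28 in DBP and 6.46, 6.61, 6.49 and 6.32 in vehicle. The groups overlapped throughout, with a log2 change of -0.01 (95% confidence interval -0.20 to 0.18; limma adjusted p = 0.961) whose sign turned to 0.01 after median shifting or quantile normalization. Changes beyond 1.15-fold in either direction lie outside that interval. DBP replicates 1 and 2 alone gave 0.10, and DBP replicates 3 and 4 gave -0.12.

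Gclc and Gclm encode the catalytic and the modifier subunit of glutamate-cysteine ligase, the rate-limiting enzyme of glutathione synthesis. The brighter Gclc probe set, 1372523_at, read 7.74, 7.55, 7.61 and 7.45 in DBP and 7.41, 7.47, 7.40 and 7.46 in vehicle, a change of 0.15 (0.00 to 0.30; limma adjusted p = 0.271) that was 0.21 in DBP replicates 1 and 2. The dimmer, 1370688_at, read 7.27, 7.14, 6.68 and 6.87 in DBP and 6.92, 6.93, 7.05 and 6.96 in vehicle. DBP replicates 1 and 2 lay above all vehicle arrays and DBP replicates 3 and 4 below them, so its change was 0.24 in the first, -0.19 in the others and 0.03 over all (limma adjusted p = 0.925). Gclm read 8.03, 7.93, 7.89 and 7.49 in DBP and 7.74, 7.90, 7.74 and 7.60 in vehicle, a change of 0.09 (-0.16 to 0.34; limma adjusted p = 0.685), with DBP replicate 4 lowest of all 8 arrays. DBP replicates 1 and 2 alone gave 0.23, and DBP replicates 3 and 4 gave -0.06.

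Ephx1, microsomal epoxide hydrolase, which opens epoxides to diols, read 9.37, 9.24, 9.37 and 9.14 in DBP and 9.27, 9.05, 9.10 and 9.19 in vehicle. The groups overlapped, and the change was 0.13 (-0.04 to 0.29; limma adjusted p = 0.382), or 0.15 in DBP replicates 1 and 2. Of the 12 probe sets, 9 read higher in DBP replicates 1 and 2 than in replicates 3 and 4, against 46.1% of all probe sets.

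**Figure D2:**
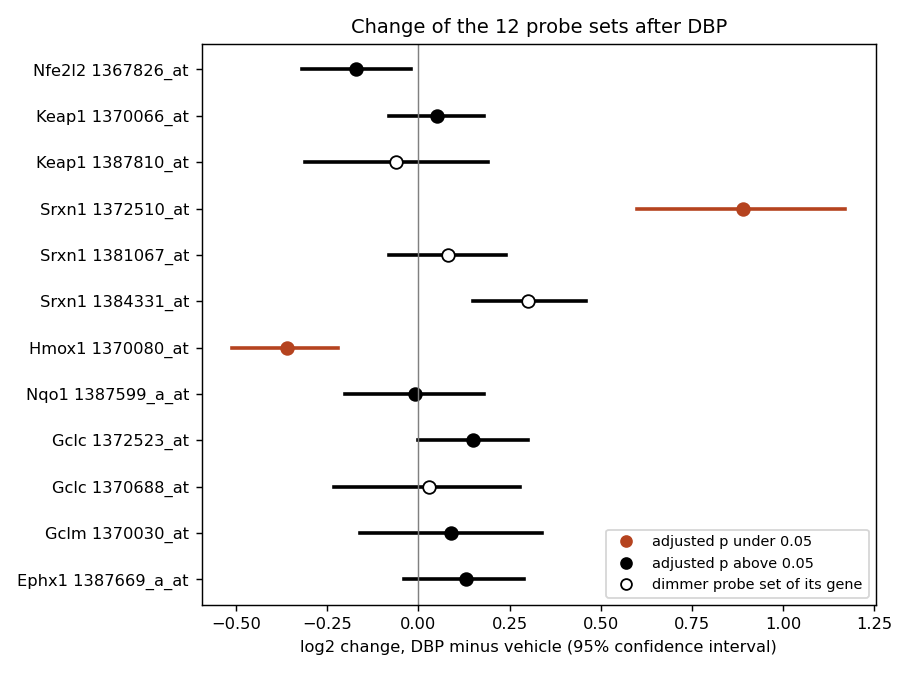
Log2 change, DBP minus vehicle, of the 12 probe sets with its 95% confidence interval from limma (horizontal axis), in the order factor, inhibitor and targets. Srxn1 1372510_at at 0.89 and Hmox1 at -0.36 passed, and the other 10 points lie between -0.17 and 0.30.

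The changes of Srxn1 and Hmox1 were set against those of the other genes by the per-array difference of their brightest probe sets, with an exact 2-sided permutation test of 4 against 4 arrays and adjustment over 13 such differences. These 2 genes were picked with their changes known, and Srxn1 enters by the probe set with the largest change of its 3, a choice the exact p does not take into account, so the values describe the size of the differences. In log2 terms Srxn1 changed by 1.05 more than Nfe2l2, 0.84 more than Keap1, 1.25 more than Hmox1, 0.90 more than Nqo1, 0.73 more than Gclc and 0.79 more than Gclm (each adjusted exact p = 0.0413). Against Ephx1 the difference was 0.76 and did not pass (adjusted exact p = 0.0619). Hmox1 differed from Keap1 by -0.41, from Gclc by -0.52 and from Ephx1 by -0.49 (each adjusted exact p = 0.0413). Its differences from Nqo1 (-0.35) and Gclm (-0.45) did not pass (adjusted exact p = 0.0619 each), nor did that from Nfe2l2 (-0.19, 0.0857). These 9 passing differences rest on an unadjusted exact p of 0.0286, the smallest possible. With each gene averaged over its probe sets 0 of 13 passed (adjusted exact p of at least 0.0531), and 0 passed without any 1 of the vehicle arrays. Passing depends on how many of the 13 share the smallest exact p, so a lost pass need not mean a lost difference. With averaging, the differences at an adjusted exact p of 0.0531 still had the smallest exact p, 0.0286.

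Around these genes, 82 others of the pathway were listed and 72 measured, each by its brightest probe set. Of these 1 rose and 0 fell, 1.39% against 1.22% of all genes (0.598% higher and 0.626% lower), and 19 had an unadjusted p under 0.05, 26.4% against 19.1% of all genes. Their median log2 change was 0.08, beside 0.02 over all genes.

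Among 12 measured partners and regulators of Nrf2, of 15 listed, 0 passed in limma. An unadjusted p under 0.05 was met by 1 of the 12, against 19.1% of all genes. Maff, a small Maf protein that can pair with Nrf2, had log2 signals of 4.84, 5.10, 4.97 and 5.39 in DBP and 4.82, 4.73, 4.62 and 4.82 in vehicle, without overlap (0.33 ± 0.108, SE; limma adjusted p = 0.168). It gave 0.22 in DBP replicates 1 and 2 alone. Bach1, the repressor that competes for the same elements, gave 0.22 (adjusted p = 0.352) with DBP replicate 2 at 4.73 and the other DBP arrays at 4.18 to 4.22, and 0.09 without DBP replicate 2. The small Maf gene Mafg gave -0.14 (limma adjusted p = 0.405), and -0.06 without DBP replicate 1. Gsk3b, a kinase that marks Nrf2 for breakdown apart from Keap1, gave -0.14 (limma adjusted p = 0.292), and -0.08 without DBP replicate 2. Cul3, the scaffold of the ligase that Keap1 serves, gave 0.02 and Sqstm1, which binds Keap1, 0.01. Both were named after their values were seen.

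Among 41 measured further target genes, of 47 listed, 1 rose in limma and 0 fell. An unadjusted p below 0.05 was met by 13 of the 41 (10 higher, 3 lower), against 19.1% of all genes. The one that rose was Akr1b8, an aldo-keto reductase that reduces lipid aldehydes. Its log2 signals were 10.40, 10.41, 10.39 and 10.14 in DBP replicates 1 to 4, against 9.61, 9.57, 9.54 and 9.58 in vehicle replicates 1 to 4. The groups lay far apart, with a change of 0.76 ± 0.0702 (SE; 1.69-fold; limma adjusted p = 0.00153) that was 0.83 in DBP replicates 1 and 2. Akr1b8 kept its call under each of the other settings run. Its RefSeq promoter held none of the 4 motifs in the window searched, and sequence farther away was not searched.

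Near the threshold were Akr7a3, an aldehyde reductase that acts on aflatoxin dialdehyde (0.32 ± 0.068, limma adjusted p = 0.0609), and Gpx2, a glutathione peroxidase best known from gut epithelium (0.38 ± 0.0854, adjusted p = 0.0709). Gstp1, the pi class glutathione transferase, had 0.23 ± 0.0577 (adjusted p = 0.0992), and Aox1, aldehyde oxidase, was lower at -0.42 ± 0.0865 (adjusted p = 0.0516). The DBP and vehicle arrays did not overlap for each of these 4, picked as the smallest p-values after Akr1b8, and for 7 of the 41 in all, against 12.9% of all genes. In DBP replicates 1 and 2 alone the changes were 0.23 for Akr7a3, 0.28 for Gpx2, 0.20 for Gstp1 and -0.32 for Aox1. In limma without DBP replicate 2 Akr7a3 (adjusted p = 0.0277) and Gpx2 (0.0454) passed, and without DBP replicate 1 Aox1 (0.0163). Each of these 3 missed the threshold in all other fits that left out 1 array. Their limma adjusted p there reached 0.197 for Akr7a3, 0.179 for Gpx2 and 0.147 for Aox1. Of 22 settings in all, Akr7a3 passed in 8, Aox1 in 5, Gpx2 in 3 and Gstp1 in 2. Each of these 4 passed in DBP replicates 3 and 4 alone, the arrays with weak spike-ins. Txnrd1, thioredoxin reductase, gave -0.07 and Slc7a11, the cystine importer, 0.22 without passing. Txnrd1 and Slc7a11 were picked after their values were seen.

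Of 16 measured genes of heme metabolism, of 19 listed, 0 passed in limma. An unadjusted limma p under 0.05 was met by 3 of the 16, against 19.1% of all genes. Tfrc, the transferrin receptor, read 9.55, 9.43, 9.53 and 9.49 in DBP and 9.79, 9.69, 9.75 and 9.66 in vehicle (-0.22 ± 0.0571; adjusted p = 0.102), without overlap. Averaged over its probe sets Tfrc passed (-0.28, limma adjusted p = 0.0342). Hmox2, the constitutive heme oxygenase, read 9.48, 9.36, 9.44 and 9.42 in DBP and 9.29, 9.28, 9.22 and 9.22 in vehicle (0.17 ± 0.0541; adjusted p = 0.153). Its sign was thus opposite to that of Hmox1, without a pass. In DBP replicates 1 and 2 alone Tfrc gave -0.23 and Hmox2 0.17. Slc40a1, the iron exporter ferroportin, gave 0.25 (limma adjusted p = 0.2), but 0.38 in DBP replicates 1 and 2, 0.11 in DBP replicates 3 and 4, and 0.09 averaged over its probe sets. Flvcr1, a heme exporter, gave -0.16 (limma adjusted p = 0.286), and -0.10 without DBP replicate 3. Fech, which puts iron into heme, had 0.26 over all arrays and passed in DBP replicates 1 and 2 alone (0.62, adjusted p = 0.0221), the arrays with the highest erythroid signal. Fech was named after its values were seen, and a link to the erythroid signal was not tested.

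Peroxiredoxins reduce peroxides, and sulfiredoxin repairs the typical ones, such as Prdx2, Prdx3 of mitochondria and Prdx4 of the secretory pathway. Of 5 measured, of 6 listed, 0 passed in limma and 2 had an unadjusted p under 0.05, against 19.1% of all genes. Prdx2 gave 0.07 (adjusted p = 0.474), Prdx3 -0.09 (0.415) and Prdx4 0.14 (0.271). Prdx6, which sulfiredoxin is not known to repair, read 10.83, 10.80, 10.88 and 10.93 in DBP and 10.74, 10.45, 10.56 and 10.68 in vehicle (0.25 ± 0.0724; adjusted p = 0.125; 0.21 in DBP replicates 1 and 2). Prdx1 shares its probe set with a relative and was not analysed here.

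**Figure D3:**
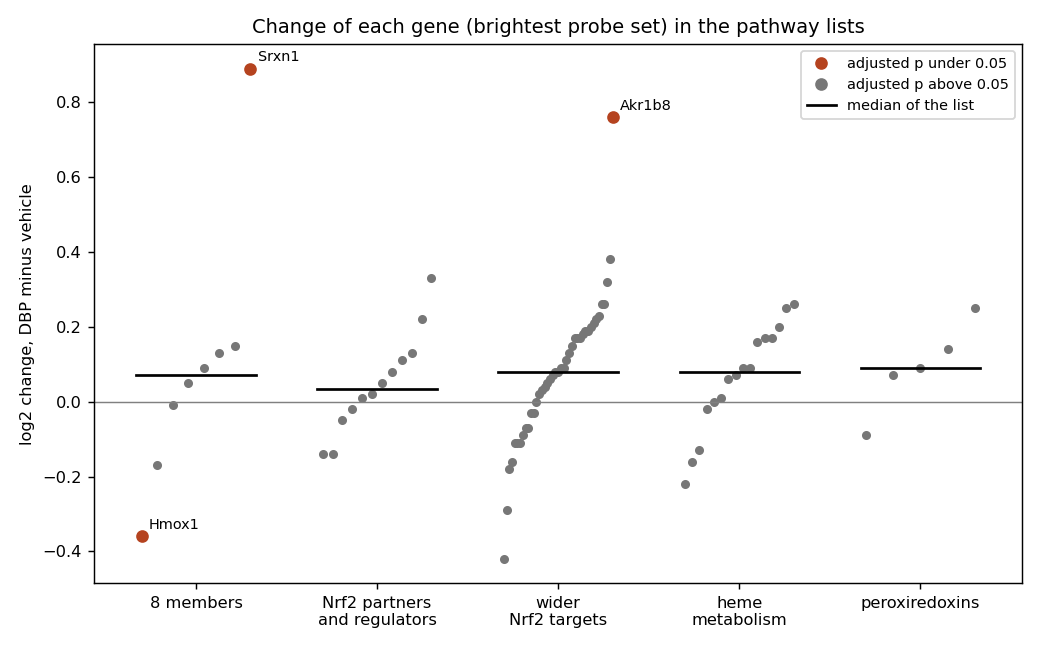
Log2 change, DBP minus vehicle (vertical axis), of each gene by its brightest probe set, for the 8 genes and 4 lists around them, with a line at each list's median. Srxn1, Akr1b8 and Hmox1 are the coloured points past the threshold, and list medians lie between 0.03 and 0.09.

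The genes whose profile over the 8 arrays was most like that of Srxn1 were sought by the mean absolute difference of log2 signals, each gene set relative to its own vehicle mean. They were Myom2 (0.103), which encodes a protein of the muscle sarcomere, Chchd4l1 (0.114) and Trim16 (0.125), a tripartite motif protein, against a median of 0.491 over all genes. Myom2 read 9.45, 9.27, 8.95 and 9.74 in DBP and 8.70, 8.61, 8.46 and 8.47 in vehicle. Its DBP arrays had the same order as those of Srxn1, replicate 4 highest and replicate 3 lowest, a likeness the measure selects for. For Hmox1 they were Nrg1 (0.035), a ligand of ErbB receptors, Vwc2 (0.0381), a secreted BMP antagonist, and Chst1 (0.0494), a sulfotransferase, against a median of 0.245. Vwc2 (limma adjusted p = 0.056) and Chst1 (0.067) did not pass, and Vwc2 was dim, at 3.69 to 4.19. Nrg1 read 5.92, 5.72, 5.89 and 5.89 in DBP and 6.31, 6.24, 6.35 and 6.07 in vehicle, a change of -0.39 that was -0.05 averaged over its probe sets. The measure ranks all genes by closeness and carries no test.

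**Figure D4:**
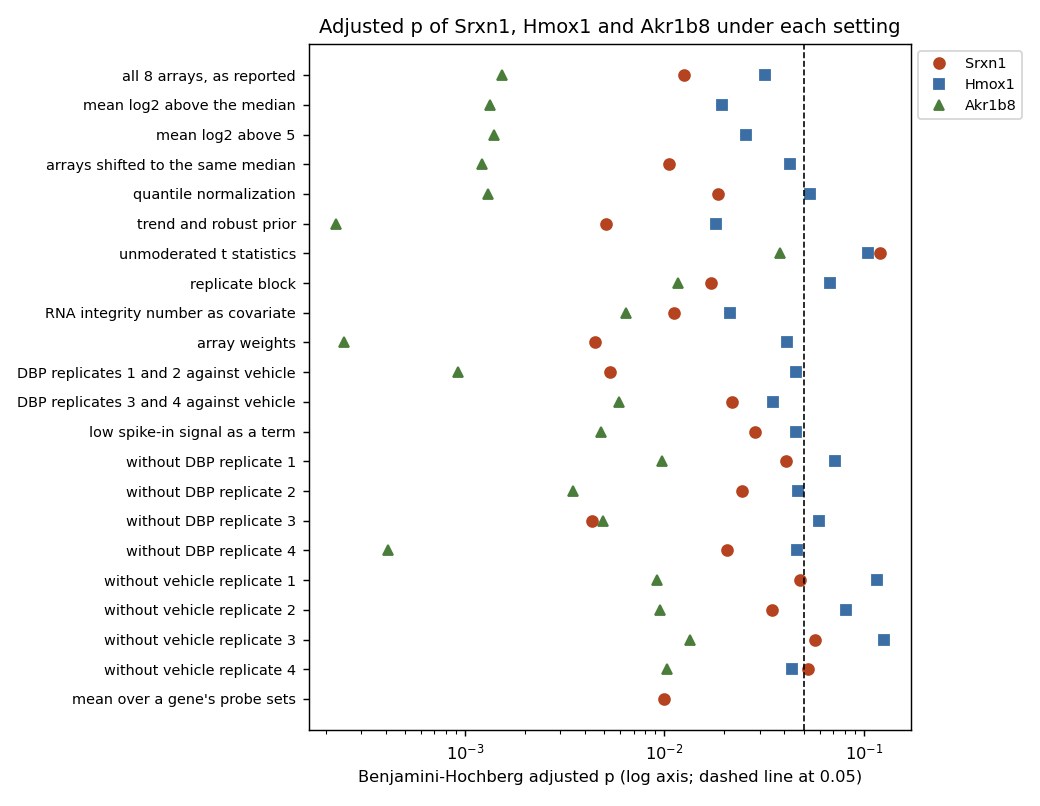
Limma's Benjamini-Hochberg adjusted p (horizontal log axis, threshold dashed at 0.05) of Srxn1 1372510_at, Hmox1 and Akr1b8 under each setting (rows). Akr1b8 lies left of the line in every row where it is drawn, Srxn1 crosses it in 3 rows (0.0523 to 0.12) and Hmox1 in 8 (0.0534 to 0.126). Srxn1 is not drawn in the rows of the filters on dim probe sets, which remove it. In the row of averaged probe sets its point is the mean over its probe sets.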

How the data were processed

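RNA from 8 fetal testis samples, 4 from DBP-exposed and 4 from vehicle-exposed dams, was profiled on Affymetrix arrays. The deposited values, 1 per probe set and array, are log2 signals. The submitters' processing notes name RMA, without a version, as the authors' method. Of 31099 probe sets, 57 Affymetrix controls were set aside and 31042 tested. Per the platform's annotation, 20826 had 1 gene symbol, 436 several and 9780 none. Only those with 1 symbol were named, and a gene was represented by its brightest probe set (highest mean of the 8 arrays), for 14217 genes in all. List symbols were matched through Entrez IDs of the RefSeq table.

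Groups were compared with limma 3.58.1 (R 4.3.3; linear model, empirical Bayes with its default prior) in 2-sided tests. P-values were adjusted by Benjamini-Hochberg over the 31042 probe sets, with 0.05 as threshold. Adjusted p-values are limma's unless called exact. Differences between genes or probe sets were tested by exact permutation over the 70 splits of the arrays. Tables were made with Python 3.11.15 and pandas 2.3.3, figures with matplotlib 3.10.9. On simulated data of 31042 probe sets for DBP against vehicle, limma recovered 96 of 100 changes of 1 log2 unit and 67 of 100 changes of 0.5 units, and made 6 false calls. The simulated noise was independent between values, with the same SD in both groups. Real arrays correlated less within DBP (0.9916 to 0.9969) than within vehicle (0.9977 to 0.9982), so these counts need not hold for them.

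The genes, lists and tests were chosen with earlier results of these data known. Named were all 8 genes, list members past the threshold, up to 4 others per list with the smallest unadjusted p, and the 3 genes closest in profile to Srxn1 and to Hmox1. Other genes are said to have been named after their values were seen. Alternatives were filters on dim probe sets, median shifting, quantile normalization, a trend and robust prior, unmoderated t statistics, RNA integrity number (8.6 to 8.8) as covariate, a block for replicate number, array weights, DBP replicates 1 and 2 or 3 and 4 alone, low spike-in signal as a term, averaging a gene's probe sets, and leaving out each array.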

Additional observations from a re-analysis of the deposited data

Results flagged for a closer look

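Within a group of 4 arrays, 1 array stood far from the others for 4 of the genes named above, by Dixon's test at its 95% level over 70 groups, of which chance flags about 1 in 20. Akr1b8 had 10.14 in DBP replicate 4, against 10.39 in the nearest DBP array. Bach1 had 4.73 in DBP replicate 2, against 4.22 in the nearest. Nrg1 had 5.72 in DBP replicate 2, against 5.89 in the nearest. Aox1 had 6.32 in vehicle replicate 4, against 6.18 in the nearest vehicle array. No array of the 8 genes of the Nrf2 set was flagged in this way.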

How the results depend on the processing

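The count over all probe sets, 331, was 74 with unmoderated t statistics, 175 with the replicate block, 577 in DBP replicates 1 and 2 alone, 4129 in replicates 3 and 4 alone, and 82 to 606 when 1 array was left out. The cause was not tested. Of the 12 probe sets of the 8 genes 2 passed. With either filter on dim probe sets 1 passed, since the filters remove Srxn1, 1 with quantile normalization, 1 with the replicate block, 0 with unmoderated t statistics and 0 to 3 when 1 array was left out (0 without vehicle replicate 3). Hmox1 missed the threshold with the block (adjusted p = 0.0674). The labels do not say whether the replicate numbers pair the samples. Deviations of same-numbered arrays correlated at 0.108, -0.0756, 0.0967 and -0.0205. Of the 8 arrays 4 correlated best with their own number, which does not settle it.

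Of the 72 pathway genes 1 passed. The count was 3 with either filter, 2 with median shifting, 4 with a trend and robust prior, 2 with array weights, 2 in DBP replicates 1 and 2 alone, 8 in replicates 3 and 4 alone, 2 with the spike-in term, 4 with averaged probe sets, and 1 to 3 when 1 array was left out. Akr1b8 passed each time, in all 21 alternatives. Of the 13 differences between genes 9 passed, 0 with averaged probe sets, and 0 to 11 when 1 array was left out. These counts depend on how many differences share the smallest exact p. Of the 4 differences within a gene 0 passed in any of these. A lone one at the smallest exact p could not pass after the adjustment.

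Signs turned only where no test was passed. Keap1 1370066_at gave 0.00 (below zero before rounding) averaged with its other probe set. Keap1 1387810_at gave 0.01 with the RNA integrity covariate, 0.02 with array weights, 0.14 in DBP replicates 1 and 2 and 0.14 with the spike-in term, and -0.15 to 0.05 when 1 array was left out. The change of 1370066_at minus that of 1387810_at was -0.02 to 0.20 when 1 array was left out. Nqo1 gave 0.01 with median shifting, quantile normalization and the RNA integrity covariate, 0.04 with array weights, 0.10 in DBP replicates 1 and 2 and with the spike-in term, and -0.06 to 0.05 when 1 array was left out. In DBP replicates 3 and 4 Gclc 1370688_at gave -0.19 and Gclm -0.06, and Gclc 1370688_at ranged over -0.07 to 0.13 when 1 array was left out. In 2 against 4 arrays the smallest exact p is 0.0667, so DBP replicates 1 and 2 alone give no exact test.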
